A study of Mus musculus with 8 samples.

Results

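The genes described here are 7 receptors and adhesion molecules of lymphoid homing, egress and retention (Ccr7, Selplg, Cd44, S1pr1, S1pr4, Cd69 and Cxcr4), picked by name from the 24453 genes of the table. All 7 passed the filter on low values, as did 15547 genes in all. Lymphocytes enter lymph nodes from the blood by rolling on vessel walls through selectin ligands and answering chemokines through CCR7, and they leave again along a sphingosine-1-phosphate (S1P) gradient read by S1P receptors. CD69 binds the receptor S1PR1 and draws it from the cell surface, and CXCR4 holds cells near sources of its ligand CXCL12, above all in bone marrow. Treg cells, the CD4 T cells that carry the transcription factor Foxp3 and restrain immune responses, use the same receptors, and resting Treg cells that circulate through lymphoid organs are known for high CCR7, while activated ones carry less of it.

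The libraries hold messenger RNA of T cells sorted as positive for CD4 and Foxp3, from untreated mice labelled T138 (2 libraries), T143 (3 libraries) and wildtype (WT, 3 libraries). T138 and T143 are lines of mice cloned by transfer of a somatic nucleus into an egg, and the series describes T138 as a natural Treg model and T143 as a model with agonist-induced development in the thymus. Each line therefore descends from a single donor nucleus and stands for that nucleus, not for a class of Treg cells. Every library, WT included, bears the strain and genotype label NOD-Foxp3GFP-Rag1-/-: a NOD background, a green fluorescent reporter of Foxp3 and loss of Rag1, without which T cells make no receptor of their own. Whether WT mice truly lacked Rag1 cannot be told from the labels, so line and Rag1 genotype cannot be told apart where WT is compared. Ages and the number of animals are not given in the sources used here. Nothing says that replicates came from separate mice, so each p-value rests on the scatter among the sequenced samples alone, part of which may be technical.

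Depth ran from 7.83 M reads in T143 replicate 1 to 22.64 M in WT replicate 1, and the member with the fewest reads in any library had 564 (Ccr7). The source names of T143 replicate 1 (a T138 mouse) and WT replicate 1 (a T143 mouse) go against their titles and descriptions, which set the groups here, so counts are also given without both. The sort was checked against defining markers. The 7 T cell markers found (of 8 listed) were above 0 in every library and Cd4 was at 10920 to 17650. But Foxp3 was at 3920, 6299 and 8694 in T143, against 41850 and 41160 in T138 and 29770 to 36360 in WT. By limma at an adjusted p under 0.05, all 6 Treg markers were lower in T143 than in T138, and 5 were lower than in WT. The shares of all tested genes that were lower were 10.2% and 12.1%. All 10 neutrophil markers were above 0 in both lines and took 0.589, 0.999 and 3.61% of the signal in T143 replicates 1 to 3, 0.155 and 0.0271% in T138 and at most 0.00527% in WT. The 10 dendritic cell markers took 0.292 and 0.215% in T138, 0.018 to 0.0777% in T143 and at most 0.00395% in WT, and the 7 macrophage and monocyte markers 0.0667 to 0.266% in T143 against at most 0.0335% elsewhere. Erythroid markers (8) took 0.0174, 0.0968 and 0.0495% in T143, 0.0076 and 0.0151% in T138 and at most 0.00391% in WT. The 6 B cell markers stayed at or below 0.00324% everywhere, with Ebf1 at 0 in all libraries and Pax5 in all except WT replicate 1. A sex-linked transcript also set T143 apart from the other groups, and no other such transcript is given here. Xist, named after its values were seen, was at 19140 to 24990 in T143 and at most 129.9 in the other libraries, so sex and line cannot be told apart in the comparisons with T143. In bulk RNA, fewer cells that express a gene and less RNA per cell cannot be told apart.

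**Figure D1:**
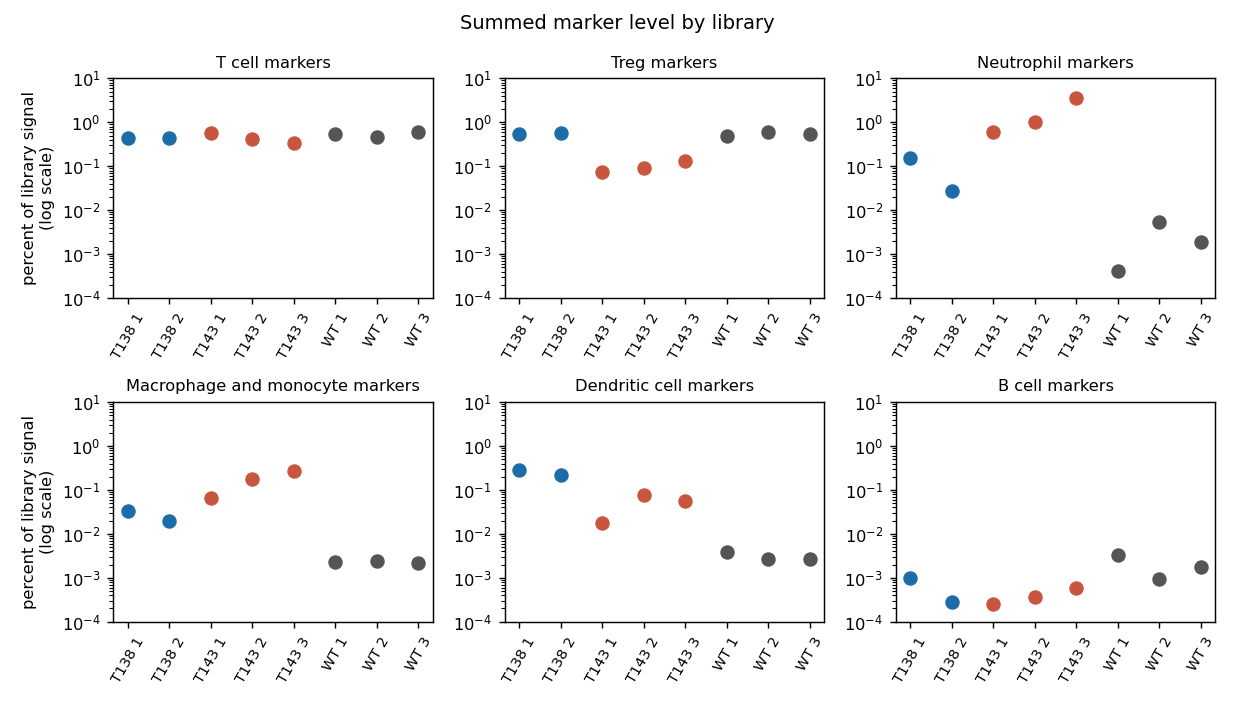
Summed level of each marker list as a percentage of the signal of each library (vertical axis, log scale), with T138 in blue, T143 in red and WT in grey. T143 replicate 3 holds the most neutrophil signal (3.61%), T138 the most dendritic cell signal (0.292 and 0.215%), and the Treg markers take 0.0721 to 0.129% in T143 against 0.481 to 0.59% elsewhere.

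The members fell into 3 patterns. Ccr7 was far lower in T138 than in T143 or WT. Cxcr4, Selplg and S1pr4 were highest in T138 and lowest on average in WT. The summed dendritic cell markers stood in the same order of groups, but not always within groups. In T143, replicate 1 had the lowest sum (0.018%) and the highest Selplg (13010) and S1pr4 (5471). In T138, replicate 1 had the higher sum and the higher Selplg, but the lower S1pr4 and Cxcr4. The part of other cells in these 3 genes was not tested. S1pr1, Cd69 and Cd44 were not called in any comparison. Values are normalised read counts, changes are differences of log2(value + 1) with their standard error (SE), and a change was called where limma, fitted over all genes, gave a Benjamini-Hochberg adjusted p under 0.05.

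Of the genes that share the second pattern, Cxcr4 and S1pr4 had a promoter in the RefSeq sequence table (build GRCm38.p6), and the 250 bases before each start are printed to show how unlike they are. The window of Cxcr4 is chr1:128592300-128592549 and that of S1pr4 chr10:81500138-81500387, both on the minus strand, read 5′ to 3′ and ending at the base before the start.
Cxcr4: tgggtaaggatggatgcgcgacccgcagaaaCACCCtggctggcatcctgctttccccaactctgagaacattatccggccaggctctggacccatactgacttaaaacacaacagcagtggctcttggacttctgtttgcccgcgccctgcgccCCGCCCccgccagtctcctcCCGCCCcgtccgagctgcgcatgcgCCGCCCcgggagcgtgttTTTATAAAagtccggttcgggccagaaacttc
S1pr4: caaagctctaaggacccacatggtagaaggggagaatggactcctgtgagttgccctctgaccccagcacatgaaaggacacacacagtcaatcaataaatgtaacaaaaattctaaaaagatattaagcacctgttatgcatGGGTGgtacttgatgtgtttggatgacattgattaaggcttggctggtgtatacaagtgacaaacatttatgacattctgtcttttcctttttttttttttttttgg
Capitals mark matches, on either strand, to 6 short motifs. The core bound by KLF factors was searched as CACCC, which reads GGGTG on the other strand. A GC box was searched as CCGCCC. The TATA box letters were TATAAA, whose matches may overlap. Letters for a hypoxia response core were ACGTG. A forkhead site was searched as TGTTTAC. An ETS site was searched as AGGAAG. Cxcr4 held 3 GC boxes, found in 33% of 32536 promoter windows of this length, and 2 overlapping TATA box matches 30 and 32 bases before the start, found in 12.3%. Each promoter held 1 KLF core, found in 52.1% of windows, and neither held the other 3 motifs. The G and C content was 61.2% for Cxcr4 and 38.8% for S1pr4, against a median of 52.4%. A match is a run of letters, not a bound site.

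Ccr7 (chromosome 11, 99144199 to 99155077, GRCm38) encodes the chemokine receptor that brings T cells into the lymph node and its T cell zone. The T138 libraries held 555.1 and 667.2, the T143 libraries 13700, 9909 and 4451, and the WT libraries 5156, 2786 and 4048. Both T138 libraries lay far below every other library, while T143 replicate 3 fell within the range of WT. The mean was 611.2 ± 79.3 in T138 (SD, n = 2), 9352 ± 4650 in T143 (n = 3) and 3997 ± 1190 in WT (n = 3), which is 15.3 times higher in T143 than in T138. Ccr7 was higher in T143 than in T138 by 3.79 ± 0.42 (limma, adjusted p = 0.000554) and lower in T138 than in WT by a change of -2.67 ± 0.42 (adjusted p = 0.00419). Against WT, T143 differed by 1.13 ± 0.38 (95% interval 0.28 to 1.97), which missed the threshold (adjusted p = 0.0575). Without T143 replicate 3, the library with the most neutrophil signal and the lowest Ccr7 of its group, that change was 1.59 (adjusted p = 0.00203, range over 21 alternatives 0.000668 to 0.173). It was 0.78 without T143 replicate 1 (adjusted p = 0.14) and 0.89 without WT replicate 2 (adjusted p = 0.173). The part of the other cells in the lower value of T143 replicate 3 was not tested.

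Selplg (chromosome 5, 113817798 to 113832528) encodes PSGL-1, a sugar-bearing ligand of selectins that also binds the chemokines of CCR7. Selplg stood at 18070 and 15610 in the T138 libraries, at 13010, 10510 and 10240 in those of T143, and at 8000, 7129 and 9372 in those of WT. The groups did not overlap in any pair. Means were 16840 ± 1740 in T138 (SD, n = 2), 11260 ± 1530 in T143 (n = 3) and 8167 ± 1130 in WT (n = 3). T138 exceeded WT by 1.05 ± 0.17 (limma, adjusted p = 0.00329), and T143 was below T138, at -0.59 ± 0.17 (adjusted p = 0.032), a call lost in 5 of 21 alternatives (adjusted p up to 0.19). T143 was above WT by 0.46 ± 0.15 (adjusted p = 0.0467), a call lost in 11 of 21 alternatives (adjusted p up to 0.238), among them leaving out T143 replicate 1 and WT replicate 1 together (0.34, adjusted p = 0.212).

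Cd44 (chromosome 2, 102811141 to 102901669) encodes the hyaluronan receptor used to mark T cells that have met antigen. T138 libraries held 2948 and 3361, T143 libraries 2157, 3316 and 5911, and WT libraries 4243, 3166 and 4096, so that the groups overlapped and T143 held both the lowest and the highest library. No change was called, with T143 against T138 at 0.15 ± 0.33 (95% interval -0.6 to 0.89), T138 against WT at -0.27 ± 0.33 (-1.01 to 0.47) and T143 against WT at -0.13 ± 0.3 (-0.79 to 0.54). The highest T143 library was replicate 3, with the most neutrophil and macrophage signal, and without it T143 minus T138 was -0.23. Neutrophils and macrophages also carry Cd44, and their part was not tested.

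**Figure D2:**
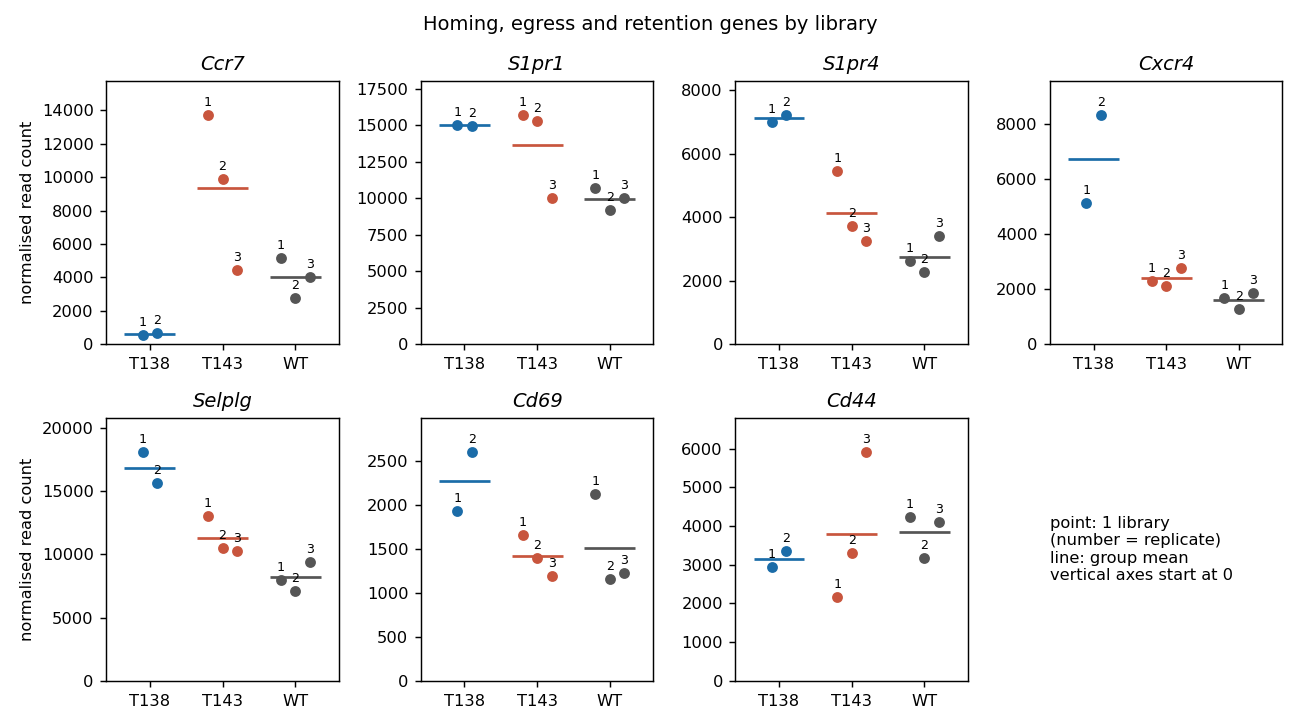
Normalised read count (vertical axes, from 0) of each gene in T138 (blue), T143 (red) and WT (grey), with 1 point per library numbered by replicate and a line at each group mean. Ccr7 is at 555.1 and 667.2 in T138 and at 2786 or more in all other libraries, while Selplg and Cxcr4 are highest in T138 and do not overlap between groups.

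S1pr1 (chromosome 3, 115710433 to 115715055) encodes the receptor that T cells need to leave the thymus and lymph nodes. The T138 libraries held 15050 and 14970, the T143 libraries 15690, 15300 and 9998, and the WT libraries 10690, 9220 and 10050. T138 lay above WT in every library, and within T143 replicates 1 and 2 lay near T138 while replicate 3 lay within the range of WT. Replicate 3 of T143 had the most neutrophil signal (3.61%) and the lowest T cell marker signal (0.33%) of all libraries. The part of other cells in its lower S1pr1 was not tested. T138 was 0.59 ± 0.19 above WT, short of the threshold (limma, adjusted p = 0.0796, 95% interval 0.16 to 1.02). The difference passed with DESeq2 (0.64, adjusted p = 0.00807) and in 3 further alternatives, over a range of 0.00807 to 0.265. Between the lines the difference was -0.17 ± 0.19 (-0.59 to 0.26). T143 against WT was at 0.43 ± 0.17 (adjusted p = 0.102), and at 0.64 without T143 replicate 3 (adjusted p = 0.00556, range 0.00556 to 0.356). It was at 0.31 without T143 replicate 1 (adjusted p = 0.263) and at 0.33 without T143 replicate 2 (adjusted p = 0.29). S1pr1 was therefore not low in T138, where Ccr7 was.

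S1pr4 (chromosome 10, 81497745 to 81500137) encodes an S1P receptor found mainly on blood and lymphoid cells. Libraries of T138 held 7018 and 7215, the T143 libraries 5471, 3721 and 3251, and the WT libraries 2609, 2266 and 3418. Both T138 libraries were above all others. T143 replicate 3, the library with the most neutrophil signal, lay below the highest WT library. S1pr4 rose in T138 over WT by 1.38 ± 0.23 (limma, adjusted p = 0.00401), or 2.57 times in the means of 7116 ± 139 (SD, n = 2) and 2765 ± 592 (n = 3). It was lower in T143 than in T138, at -0.81 ± 0.23 (adjusted p = 0.0303), and T143 against WT, at 0.57 ± 0.21, was not called (adjusted p = 0.0694). The call between the lines was lost without trend and robust fitting (adjusted p = 0.108, and 0.105 for Selplg) and on leaving out T138 replicate 1, T138 replicate 2, T143 replicate 2 or T143 replicate 3 (adjusted p = 0.115, 0.152, 0.0851 and 0.068), and so was that of Selplg (adjusted p = 0.19, 0.0951, 0.0951 and 0.0615). Both changes held their direction in all 21 alternatives.

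Per kilobase of transcript, S1pr1 stood above S1pr4 in every library. The ratio of S1pr1 to S1pr4 on this scale came to 1.68 and 1.63 (T138), 2.25, 3.22 and 2.41 (T143), and 3.21, 3.19 and 2.3 (WT), so that T138 had the most even pair. This ratio, like the others below, was chosen after the values were seen and is a description without a test.

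Cd69 (chromosome 6, 129267324 to 129275375) encodes an early activation marker and retention molecule. The T138 libraries held 1937 and 2604, the T143 libraries 1664, 1400 and 1199, and the WT libraries 2128, 1164 and 1231. The T138 libraries were above T143, but WT replicate 1 lay between the T138 libraries. Cd69 was not called in any comparison, with T143 against T138 at -0.67 ± 0.26 (limma, adjusted p = 0.0934), T138 against WT at 0.63 ± 0.26 (adjusted p = 0.168) and T143 against WT at -0.04 ± 0.24 (95% interval -0.56 to 0.48). WT replicate 1, whose source name points to a T143 mouse, decided the second of these. In that library Foxp3 (29770), the neutrophil markers (0.000406%) and Xist (35.13) were all far from the T143 libraries and on the side of WT. Without it T138 exceeded WT by 0.91 (adjusted p = 0.029, range 0.029 to 0.568), and T143 against T138 was called too, at -0.67 (adjusted p = 0.0343, range 0.0329 to 0.422). The level of S1pr1 per kilobase was 4.3 and 3.18 times that of Cd69 in T138, 5.22, 6.05 and 4.62 times in T143, and 2.78, 4.39 and 4.52 times in WT. These are transcript ratios, and the action of CD69 on S1PR1 takes place between the proteins.

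Cxcr4 (chromosome 1, 128588199 to 128592299) encodes the CXCL12 receptor that keeps cells in bone marrow. The T138 libraries held 5127 and 8303, the T143 libraries 2287, 2116 and 2781, and the WT libraries 1663, 1271 and 1859. No library of any group overlapped with another group, although the T138 libraries differed more from each other than any within T143 or WT. Cxcr4 was 4.2 times higher in T138 (6715 ± 2250, SD, n = 2) than in WT (1597 ± 300, n = 3), a change of 2.05 ± 0.23 (limma, adjusted p = 0.000568). T143 (2395 ± 345, n = 3) was below T138 by a change of -1.46 ± 0.23 (adjusted p = 0.00206). T143 against WT was at 0.59 ± 0.21 (95% interval 0.14 to 1.05), just outside the threshold (adjusted p = 0.0617), and passed in 6 of 21 alternatives (range 0.0175 to 0.189). The summed dendritic cell markers were also highest in T138, in replicate 1, while Cxcr4 was higher in replicate 2. The single markers were split between these libraries. Xcr1, Clec9a and Cd209a were higher in replicate 2, like Cxcr4, and the other dendritic cell markers were higher in replicate 1. The part of other cells in Cxcr4 was not tested.

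The 3 comparisons share libraries, so their counts are not separate results. For T143 against T138, 1 of 7 members was higher (Ccr7) and 3 were lower (Cxcr4, S1pr4 and Selplg), where 10.8% of all tested genes were called higher and 10.2% lower. Comparing T138 with WT gave 3 higher (Cxcr4, S1pr4 and Selplg) and 1 lower (Ccr7), against 5.74% and 5.3% of all genes. In T143 against WT 1 was higher (Selplg), against 11.7% of all genes, and by limma 0 were lower, against 12.1%. At an unadjusted p under 0.05, limma gave 5 higher and 0 lower. The share of all genes at that p is not given here. On the recovered reads, limma-voom, DESeq2 and edgeR also called 0 members lower, where 1436, 1935 and 1594 of 15547 genes were lower. DESeq2 called 5 members higher in T143 than in WT, among 2311 of the 15547 genes. Leaving out T143 replicate 1 and WT replicate 1 together, the counts were 5, 5 and 0 members in the order given, where 2752, 1381 and 2823 of 15083 genes were called, Cd69 joining in the first pair.

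**Figure D3:**
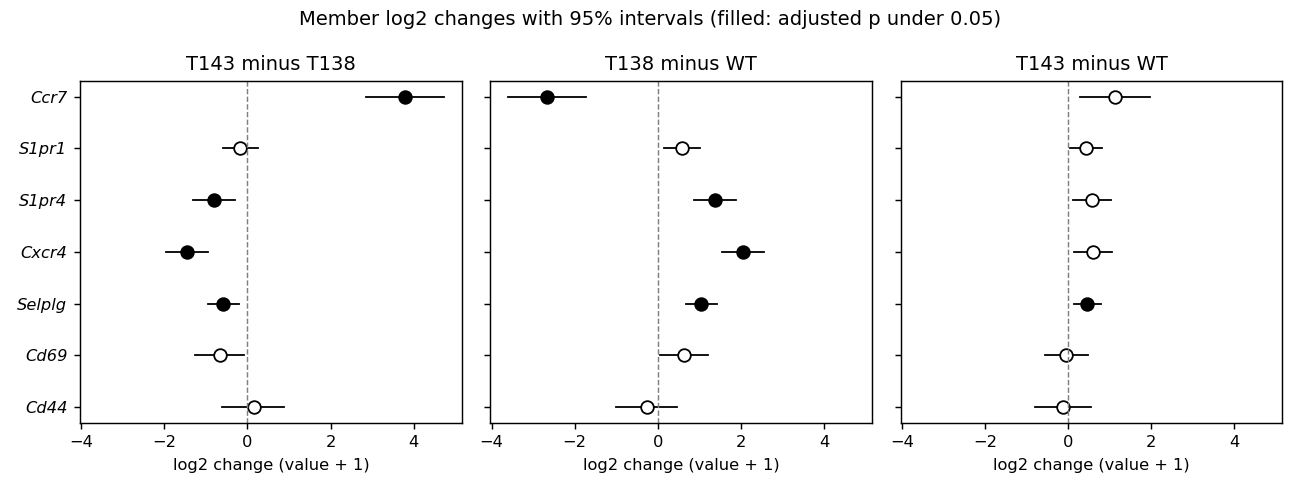
Difference of log2(value + 1) (horizontal axis) for each gene in the 3 comparisons, with 95% intervals from limma and filled points where the adjusted p is under 0.05. Ccr7 runs opposite to Cxcr4, S1pr4 and Selplg between the lines (3.79 against -1.46, -0.81 and -0.59) and in T138 minus WT (-2.67 against 2.05, 1.38 and 1.05).

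Ccr7 and Cxcr4 exchanged ranks in T138. Per kilobase of transcript, Cxcr4 was at 10.1 and 13.6 times the level of Ccr7 in T138. In T143 Ccr7 was the higher of the pair, at 5.47, 4.27 and 1.46 times the level of Cxcr4, and likewise in WT, at 2.83, 2.0 and 1.99 times. The order of T143 and WT on this ratio was not separate, since T143 replicate 3 lay nearest to equality of all 6 libraries. Ordered by mean level per kilobase, T138 ran from Selplg (9080) through S1pr1 (4930), Cxcr4 (3720), S1pr4 (2980), Cd69 (1350) and Cd44 (562) to Ccr7 (309), while in T143 Ccr7 (4730) stood second after Selplg (6070) and close to S1pr1 (4490). In WT the order was Selplg (4400), S1pr1 (3280), Ccr7 (2020), S1pr4 (1160), Cd69 (894), Cxcr4 (885) and Cd44 (683), where each gene from Ccr7 down overlapped with the next over libraries. Neighbours also overlapped in T138 for Cxcr4 and S1pr4. In T143 they did for Ccr7 with both Selplg and S1pr1, for S1pr4 with Cxcr4, and for Cd69 with Cd44.

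**Figure D4:**
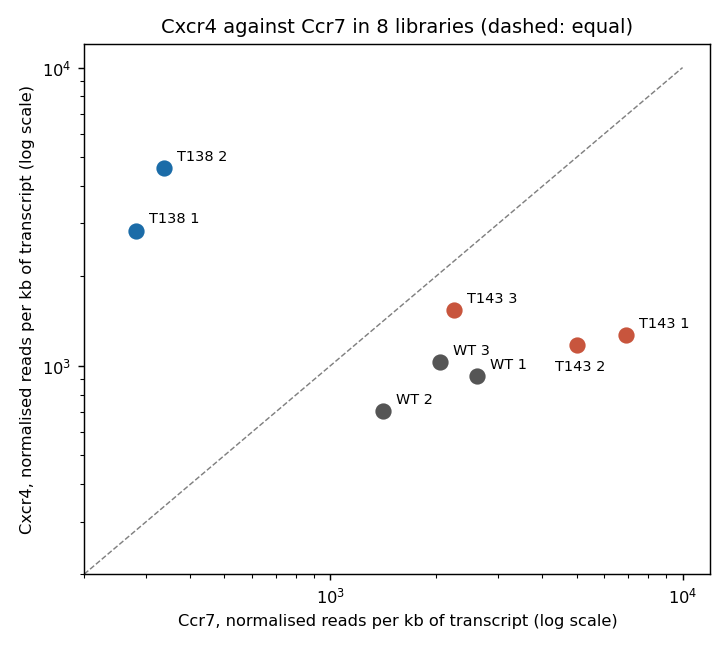
Normalised reads per kilobase of transcript for Ccr7 (horizontal) and Cxcr4 (vertical), both on log scales, with 1 point per library and a dashed line where they are equal. Both T138 libraries lie above the line (10.1 and 13.6 times more Cxcr4) and the 6 T143 and WT libraries below it.

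Across the 8 libraries, log2 levels of S1pr4 and Selplg had Pearson r of 0.982, S1pr4 and Cxcr4 0.882, and Selplg and Cxcr4 0.885, while Ccr7 and Cxcr4 had -0.718. These values describe 8 libraries in 3 groups and carry no test. Among 7608 candidate genes expressed above the median gene, Itm2a (r of 0.994) and Cct4 (0.992) were among the 3 with patterns most like that of Ccr7. Esyt1 and Kcnab2 were nearest to S1pr4 (0.991 and 0.989), and Esyt1 was nearest to Selplg as well (0.988). Nearest to Cxcr4 were Glipr1 (0.989), Ptp4a2 (0.987) and Ifngr1 (0.974). S1pr1 was nearest to Swt1 (0.99), Tspan13 (0.966) and Rasgrp2 (0.954), Cd69 to Fbxl6 (0.947), Taf9b (0.944) and Syf2 (0.943), and Cd44 to Stx11 (0.932), St3gal2 (0.929) and Slc35b1 (0.91).

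The 13 genes of selectins and selectin ligand synthesis held 4 higher and 0 lower in T143 than in T138, and 1 higher and 1 lower in T138 than in WT. In T143 against WT they held 4 higher and 0 lower. Medians were 0.5, 0.02 and 0.42 against 0.15, -0.06 and 0.05 over all genes. For this and each later list, the shares of all tested genes were 10.8% higher and 10.2% lower, 5.74% and 5.3%, and 11.7% and 12.1%, in the same order. St3gal6, a sialyltransferase, was at 276.6, 384.3 and 285.9 in T143 and at 30.4 to 77.74 in the other libraries (2.82 ± 0.52 over T138, adjusted p = 0.00419). Fut7, the fucosyltransferase that completes selectin ligands on PSGL-1, was at 379.9 and 221 in T138 against 36.5 to 114.8 in WT (2 ± 0.56, adjusted p = 0.0436).

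The S1P list of 11 other receptors and enzymes held 3 higher and 0 lower genes in T143 than in T138, 0 higher and 1 lower in T138 than in WT, and 3 higher and 0 lower in T143 than in WT, with medians of 0.59, -0.13 and 0.94. S1pr2, a receptor that opposes migration, was at 185.1 to 438.1 across all libraries and was not called. S1pr5, the egress receptor of natural killer cells, was low in T138 (23.62 and 94.83), T143 (39.8, 71.27 and 54.46) and WT (4.13 to 20.23), and was called higher in T143 than in WT (2.53 ± 0.78, adjusted p = 0.039). Sphk1, which makes S1P, was at 89.55, 313.1 and 231.4 in T143, at 0 and 5.93 in T138 and at 0, 34.08 and 18.24 in WT (adjusted p = 0.0145 and 0.0326). Plpp1, a lipid phosphate phosphatase, was at 0.98 and 0 in T138, below the value of 3 reads, and at 40.28 to 199.8 elsewhere (adjusted p = 0.000834 between the lines). Within T143, Sphk1, Plpp1 and the erythroid markers were all lowest in replicate 1 and highest in replicate 2. The summed dendritic cell and natural killer cell markers had the same order, and replicate 1 was also the shallowest library. Of the 8 erythroid markers, 3 were called higher in T143 than in T138 and 8 higher than in WT. Their sum was higher in T138 (0.0076 and 0.0151%) than in WT (at most 0.00391%), while Plpp1 was lower in T138. The part of other cells in Sphk1 and Plpp1 was not tested. Sgpp1, an S1P phosphatase, was higher in T143 than in T138 (0.59 ± 0.17, adjusted p = 0.0365). Natural killer cell markers took 0.00656 to 0.0105% of the signal in T143, 0.00301 and 0.00344% in T138 and 0.00203 to 0.00317% in WT. In T138 their sum was thus near WT, but of the 6 single markers 3 were called higher in T138 than in WT and 1 lower. Ncr1 was at 149.6 and 164.3 in T138 and at most 1.06 in WT, and Eomes at 57.09 and 104.1 against 196.8 to 358.2. S1pr5 was as high on average in T138 as in T143 (means of 59.22 and 55.18). The part of natural killer cells in S1pr5 was not tested.

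Regulators of chemokine receptor signals split. In this list of 15 genes, 3 were higher and 4 lower in T143 than in T138, 1 and 2 in T138 against WT, and 3 and 3 in T143 against WT, with medians of 0.12, -0.06 and -0.03. Rgs1, which dampens Gi-coupled receptors such as CXCR4 and S1PR1, was at 537.3, 430.1 and 810.7 in T143 against 4306 and 4456 in T138 and 3042 to 4969 in WT. Its change was -2.93 ± 0.27 against T138 (limma, adjusted p = 0.000171) and -2.7 ± 0.24 against WT (adjusted p = 7.26e-05), and T138 was close to WT (0.23 ± 0.27, adjusted p = 0.657). Rgs16, of the same family, was also lower in T143 than in T138 (-2.95 ± 0.39) and WT (-3.66 ± 0.35). Rgs2 was 3 ± 0.41 higher in T138 than in WT, at 4846 and 4219 against 391.9 to 911.9. Adrbk1, which encodes the receptor kinase GRK2 that desensitises S1PR1, was at 10330 to 12060 in all libraries and was not called in any comparison.

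Among 11 transcriptional regulators of homing genes that passed the filter, 5 were higher and 2 lower in T143 than in T138, 3 and 1 in T138 against WT, and 1 and 1 in T143 against WT (medians of 0.51, -0.32 and 0.17). Klf2, the factor known to drive S1pr1, stood at 9972 and 9093 (T138), 9308, 8169 and 6198 (T143) and 6589, 4048 and 5558 (WT). T138 was above WT in every library (0.85 ± 0.22, limma, adjusted p = 0.0347), and the lines were not called apart (-0.29 ± 0.22, adjusted p = 0.38). S1pr1 differed from WT in the same direction but was not called (adjusted p = 0.0796), and Ccr7 differed in the opposite one. The part of Klf2 in either gene was not tested. Foxo1, another activator of this group, stood at 6615 and 6260 (T138), 6444, 7643 and 5012 (T143) and 9227 to 10130 (WT), and was called lower in T143 than in WT (-0.62 ± 0.16, adjusted p = 0.0165). Against WT, T138 was at -0.58 ± 0.17 (adjusted p = 0.0583). Id2 was higher in T143 than in T138 (1.57 ± 0.16) and WT (2.43 ± 0.14), and Klf6 was higher in T138 than in T143 and WT, at 7752 and 9817 against 3093 to 4622.

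Other receptors of lymphoid and marrow homing (12 tested of 14) held 3 higher and 3 lower in T143 against T138, 3 and 2 in T138 against WT and 1 and 2 in T143 against WT, with medians of 0.08, 0.18 and 0.03. The integrin chain Itga4, which pairs with Itgb1 or Itgb7 to bind vessel walls of marrow and gut, stood at 31240 and 31050 (T138), 8203, 11230 and 13780 (T143) and 11370 to 18860 (WT; T138 over WT 1.14 ± 0.24, adjusted p = 0.0142). Itgb7 was called higher in T138 than in WT as well (0.74 ± 0.21, adjusted p = 0.0446), and Itgb1 was lower in T143 than in T138 (-1.59 ± 0.19). Cxcr5, the receptor for entry into B cell follicles, was at 155.5 and 110.1 in T138 against 1165 to 1665 in WT (-3.38 ± 0.6, adjusted p = 0.00738). Cd47 was higher in T143, at 5384 to 5672, than in T138 (3022 and 3579) and WT (2861 to 2910).

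The migration machinery list of 25 genes held 4 higher and 4 lower in T143 against T138, 3 and 1 in T138 against WT and 5 and 5 in T143 against WT (medians of 0.2, 0.01 and 0.24). Stk4, a kinase needed for T cell egress, was higher in T143 than in T138 (0.93 ± 0.15, adjusted p = 0.00263), as was its partner Mob1a (0.76 ± 0.13). Itgal, the LFA-1 chain of firm adhesion, was lower in T138 than in WT (-0.8 ± 0.15, adjusted p = 0.00773). Rap1b, a switch for integrins, was higher in both lines than in WT (0.93 ± 0.18 in T138 and 1.13 ± 0.16 in T143). Arhgef1 was lower in T143 than in WT (-1.07 ± 0.15). Of 5 C-type lectin genes near Cd69 in the natural killer gene complex, 1 was higher in T143 than in T138, 1 higher and 1 lower in T138 than in WT and 1 higher in T143 than in WT, with medians of -0.48, 1.69 and 1.31. Clec2i was lower in T138, at 597.4 and 437.7, than in WT, at 1245 to 1506, and Klrd1, a natural killer receptor chain, was at 395.7 and 342.9 in T138, 65.67 to 107.7 in T143 and at most 8.52 in WT. Over all lists, 23 of 92 genes were higher and 13 lower in T143 against T138, where 10.8% and 10.2% of all tested genes were. The counts were 12 and 9 in T138 against WT, where the shares were 5.74% and 5.3%. They were 18 and 11 in T143 against WT, where the shares were 11.7% and 12.1%.

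**Figure D5:**
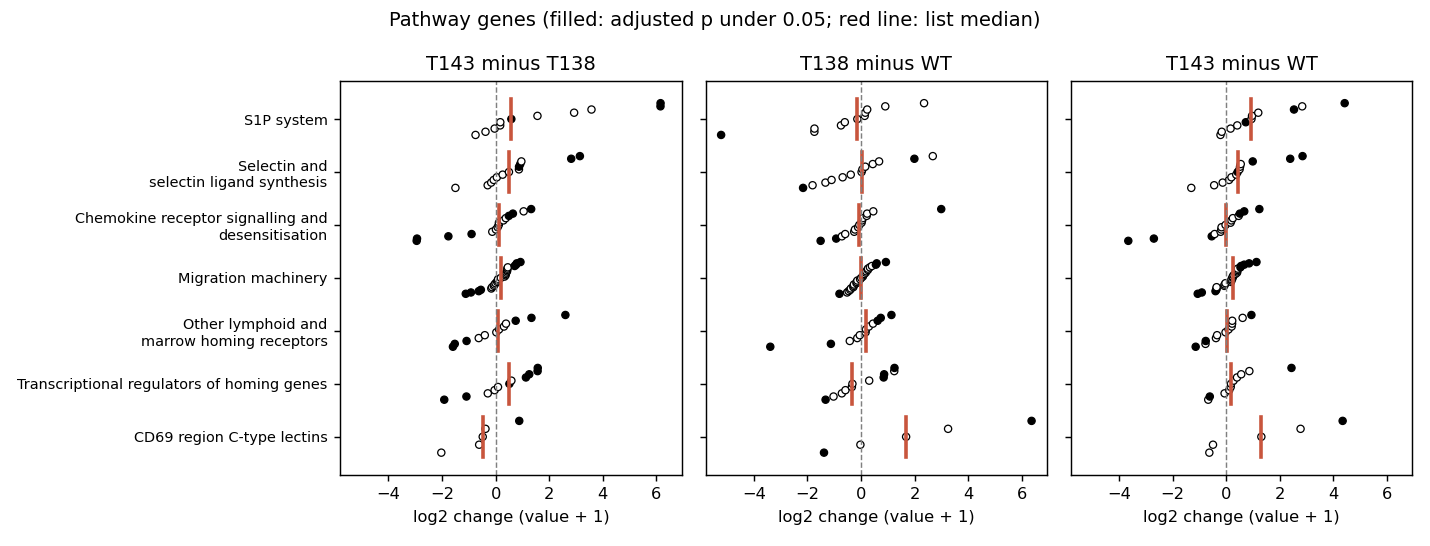
Difference of log2(value + 1) (horizontal axis) for every tested gene of the 7 pathway lists in the 3 comparisons, filled where the limma adjusted p is under 0.05, with a red line at the list median. Most list medians lie within 0.6 of 0, and each list larger than 13 genes holds called genes on both sides.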

How the data were processed

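RNA from 8 libraries was made with a stranded poly(A) kit, per the labels' protocols. The deposited values are a signal: read counts that the authors brought to the same total per library (15.59 M), as the values themselves show, since dividing by what 1 read is worth in its library gave whole reads within 0.01 for 100% of values. Tools given without roles, per the submitters' processing notes, were HOMER 4.8, STAR 2.5.2b, edgeR and CASAVA 1.8.2, with build mm10. The sources used here do not state the strand setting of the counting, so overlapping genes are uncertain. Quantities were tested on log2(value + 1) with limma 3.58.1 (R 4.3.3; trend, robust, all 8 libraries, 3 group means, two-sided) for genes that reached 1 in 2 or more libraries. Fold changes on this scale understate changes of low genes. edgeR 4.0.16 and DESeq2 1.42.0 on recovered reads were alternatives. Members and lists were chosen with earlier results of these data known. Named were the 7 members, Foxp3, Cd4, 8 fixed pathway genes (1 of which is not reported here), up to 3 further called genes per list and comparison, and the 3 genes nearest each member by Pearson r, without predicted, receptor-segment and small RNA genes. Positions came from RefSeq (GRCm38.p6) and transcript lengths from GENCODE, both found for all 7 members. Promoters were found for 3.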

Additional observations from a re-analysis of the deposited data

How the results depend on the processing

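Over 21 alternatives, Ccr7 and Cxcr4 (both comparisons with T138) and S1pr4 and Selplg (T138 against WT) kept direction and call. Of the member values under an alternative, 386 kept both, 21 lost a call, 24 gained one and 10 changed sign, all 10 in changes that were not called. Without trend and robust fitting, 2158 genes were called for T143 against T138 (3272 as reported) and 977 for T138 against WT (1716), and 2 members for T143 against T138 (4). For T143 against WT (1 member and 3698 genes as reported), 0 members were called without a low-value filter, where 3504 of 17469 genes were. The count was also 0 with median centring (3560 of 15547 genes) and without trend and robust fitting (2505). It was 0 without T143 replicate 1 and WT replicate 1 as well (2823 of 15083). Quantile normalization gave 3 members (3953 of 15547 genes) and DESeq2 gave 5 (4246). Leaving out each library in turn gave 1345 to 3674 genes (lowest without T138 replicate 2), 757 to 1837 (lowest without T138 replicate 2) and 2460 to 3575 (lowest without T143 replicate 2) in the 3 comparisons, and 2 to 5, 4 to 5 and 0 to 4 members; fewer libraries were then fitted. In these fits S1pr1 ran from -0.28 to 0.05 and Cd44 from -0.23 to 0.49 for T143 against T138, and Cd69 from -0.2 to 0.23 and Cd44 from -0.51 to 0.22 for T143 against WT. Cd44 in T143 against WT was at 0.04 with edgeR and with DESeq2, and without T143 replicate 1 and WT replicate 1 Cd44 was at 0.3 and Cd69 at 0.11. With the replicate number as a replicate block, 3 members were called for T143 against WT, where 3940 of 15547 genes were. In that fit Cd44 was at -0.07 for T143 against T138. Deviations of same-numbered libraries correlated at -0.0623 to 0.0548, and other pairs at -0.073 to 0.073. Of 8 libraries, 4 correlated best with their own number. Between T143 and WT the same-numbered pairs were at 0.0239, 0.0548 and 0.0225, and the others at -0.0313 to -0.00221. With 2 or 3 libraries per group, each centred on its group mean, this check cannot decide whether the numbers pair the samples. Quantile normalization moved the median change of all genes from 0.152 to 0.0136 (T143 against T138) and from 0.0528 to -0.0778 (T143 against WT). The cause of these changes was not tested.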
